A study of Mus musculus with 5 samples.

Results

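The genes described here are the matrix metalloproteases, the ADAMTS and ADAMTS-like proteins and the tissue inhibitors of metalloproteases, as read in the retina of mice with form-deprivation myopia (FDM). They were chosen by symbol alone, as every row of the estimated count table named Mmp, Adamts, Adamtsl or Timp with a number. This gave 51 of the 33636 genes listed, namely 23 Mmp, 19 Adamts, 5 Adamtsl and 4 Timp genes, and no symbol had more than 1 row. The animals were wild-type male C57BL/6J mice, an inbred laboratory strain, and none carried a transgene by the labels. In the FDM group, a diffuser goggle covered the right eye for 2 weeks from postnatal day 28, which blurs the image on the retina. The control group was the open left eye of such animals, so that every control retina came from a mouse whose other eye was deprived. Retinas were collected at postnatal day 42, and poly-A RNA of 2 FDM and 3 control eyes was read. The labels give a refractive error of 0.976 and 0.2745 dioptres for the FDM eyes and of 2.4455, 3.1505 and 2.465 dioptres for the controls. The libraries are called FDM 1, FDM 3, Control 1, Control 2 and Control 3. FDM 1 and Control 1 were the eyes of one mouse and FDM 3 and Control 3 those of another by the study's numbering, while Control 2 had no partner. The sample label numbers the second FDM library 2 where the column of the count table has 3, and the column's number is used.

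Matrix metalloproteases are zinc enzymes, secreted or held at the cell surface, that cleave collagens, laminins and other proteins of the extracellular matrix. ADAMTS proteases carry thrombospondin repeats and cleave proteoglycans or trim procollagens, whereas the ADAMTS-like proteins share these repeats but lack the protease domain. The Timp proteins bind the active site of metalloproteases and block it. In the eye these enzymes are best known from the sclera, whose matrix is remodelled as the eye lengthens, from the vitreous and from Bruch's membrane beneath the retinal pigment epithelium (RPE), where TIMP3 is deposited. The comparison asks which of these genes differed in RNA level between the deprived and the open eye.

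Totals were 40599047 to 56534931 estimated counts per library, and the 17432 genes that had over 10 counts in 2 or more libraries were tested. Levels are given as TMM-normalized CPM, the usual scaling of counts to the size of the library. A count of 3, the smallest number treated as detected, corresponds to 0.0526 to 0.0751 CPM, and this limit covers only the error of counting. No pair of libraries agreed within sampling noise (chi-square per degree of freedom 11.95 to 60.87). The samples had the markers of retina: the 6 photoreceptor markers summed to 48529 to 62498 CPM and the 5 markers of Müller glia to 3151 to 3358 CPM. Some libraries stood apart in markers of neighbouring tissues. The 8 lens markers found summed to 1967 CPM in FDM 3 and to 2.81 to 18.6 CPM in the others, and the skeletal muscle markers to 61.0 CPM in Control 3 and 9.32 to 10.8 CPM elsewhere. RPE markers summed to 182 CPM in Control 2 and 175 CPM in Control 3, and to 41.3 to 47.9 CPM in FDM 1, FDM 3 and Control 1. Values without a library that stands apart are given beside the results below. In such bulk samples, fewer cells of a type and less RNA per cell cannot be told apart.

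In these retinas 41 of the 51 genes passed the count filter, 31 had a mean above 1 CPM and 16 above 10 CPM. To compare genes, CPM was divided by the kilobases of exon of each gene. On this scale Timp2, which inhibits most metalloproteases and also helps to activate pro-MMP2 at the cell surface, was highest at 24.4 CPM per kb. Timp3, which binds to the matrix, was the next at 10.4 CPM per kb. The highest metalloproteases were Mmp24 (6.83 CPM per kb), a membrane-type enzyme known from neurons, and Mmp9 (6.14 CPM per kb), a gelatinase. Adamtsl5 (5.08 CPM per kb) led the ADAMTS-like genes and Adamts10 (4.52 CPM per kb), a fibrillin-binding protease mutated in Weill-Marchesani syndrome, the ADAMTS genes. Only 17 members exceeded 1 CPM per kb. Summed over each family, the level per kilobase was 33.0 to 39.7 for Timp, 29.1 to 32.4 for Mmp, 16.1 to 18.8 for Adamts and 9.38 to 12.5 for Adamtsl across the 5 libraries. Timp2 and Timp3 together made 99.0% to 99.4% of the CPM of the Timp family, and 31.2% to 38.5% of the CPM of all 51 genes.

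**Figure D1:**
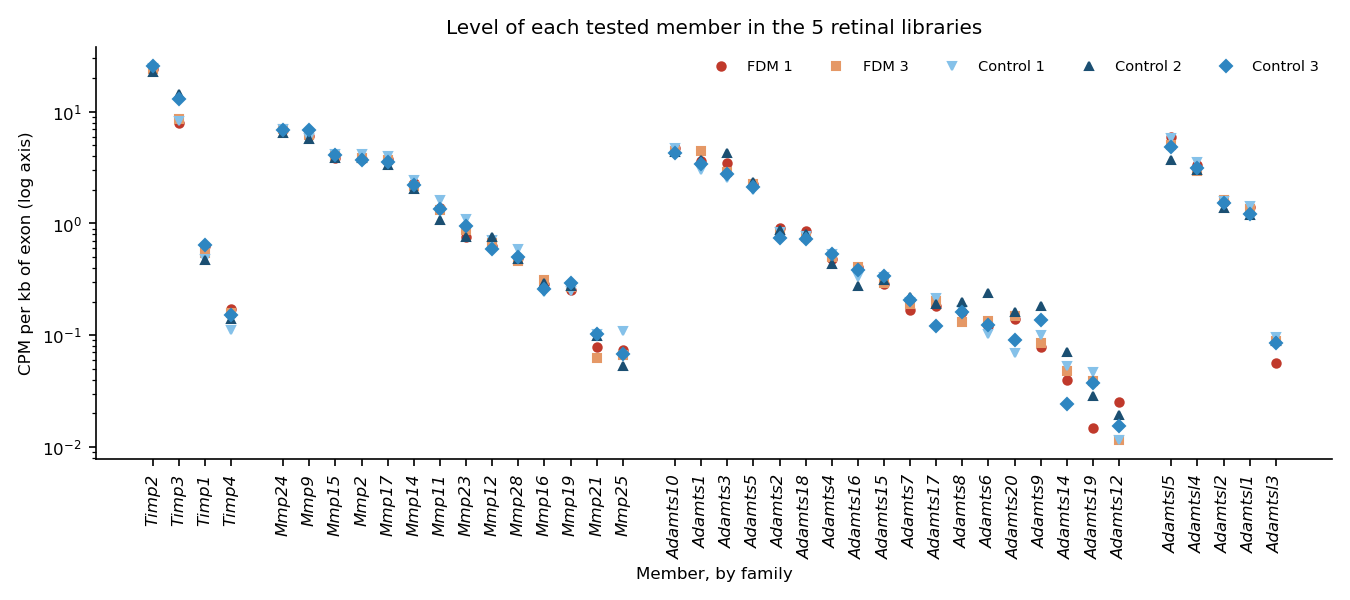
Level of each tested gene in CPM per kilobase of exon (vertical log axis), by family, with 1 symbol per library. Timp2 (24.4 CPM per kb on average) and Timp3 (10.4) stood highest, and for most genes the symbols of the 5 libraries lay close together.

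A row of 10 metalloprotease genes lies on chromosome 9, and most of them gave no or almost no reads. The cluster spans 427 kb (GRCm38, chr9:7272514-7699585) in the order Mmp13, Mmp12, Mmp1b, Mmp3, Mmp1a, Mmp10, Mmp8, Mmp27, Mmp20 and Mmp7. It holds all 4 collagenases, namely Mmp1a, Mmp1b, Mmp8 and Mmp13, and the stromelysins Mmp3 and Mmp10. It also holds the matrilysin Mmp7 and the enamel protease Mmp20. Mmp1a, Mmp1b, Mmp27 and Mmp7 had 0 counts in all 5 libraries, which allows a level of up to 0.0526 to 0.0751 CPM. Mmp8, Mmp10 and Mmp20 had 1 count in a single library, and Mmp3 had 1 count in FDM 3 and 1 in Control 1. Mmp13 had 2 and 3 counts in FDM 1 and FDM 3, and 4, 6 and 1 counts in Control 1 to 3. Mmp12, the macrophage metalloelastase, was the exception. Its counts were 196 and 232 in FDM 1 and FDM 3, and 207, 315 and 205 in Control 1 to 3. The groups overlapped at 4.67 ± 0.214 CPM (SD, n = 2) for FDM and 5.01 ± 0.623 CPM (SD, n = 3) for control eyes, with a log2 fold change of -0.10 (edgeR, unadjusted p = 0.522). Mmp12 and Mmp1b overlap on opposite strands by 157 exon bases, and the library kit did not mark the strand, so reads of those bases cannot be assigned to one of them. The tenth gene outside the tested set, Adamts13, lies on chromosome 2, cleaves von Willebrand factor and had 2 to 9 counts.

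**Figure D2:**
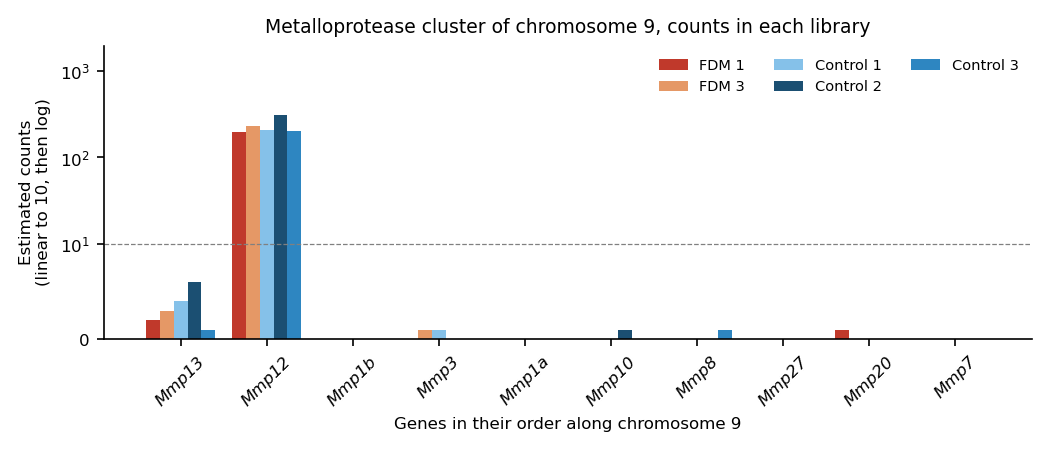
Estimated counts of the 10 clustered metalloprotease genes of chromosome 9 in each library (vertical axis linear to 10, then log; the dashed line marks the minimum of 10 counts). Mmp12 had 196 to 315 counts and the other 9 genes at most 6.

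The promoters of the cluster are shown because they differ in base composition and motifs from those of the other members. RefSeq promoters of 300 bases (250 before and 50 after the start, GRCm38.p6) were matched for 36 of the 51 genes, among them all 10 of the cluster. Their GC content had a median of 42.8% (37.7% to 46.7%) in the cluster, 66% (53.3% to 80%) in the other 26, and 52.7% over all 32851 promoters. The letters TGANTCA, which AP-1 factors bind and which read the same on both strands, were present in 8 of the 10 cluster genes and 0 of the 26 others, and in 7.81% of all promoters. A TATA box (TATAAA, both strands) was present in 9 of 10, 3 of 26 and 13.6%. The GC box (GGGCGG, both strands) was found in 0 of 10, 22 of 26 and 35.7%, and CCAAT, on both strands, in 3 of 10, 6 of 26 and 37.4%. A gene was counted if any of its promoters held the letters, whereas the shares over all promoters are per promoter. A match is a description of the letters and not a site in use. Below are the promoters of Mmp12, the gene read at 196 counts or more, of Mmp13 and of Mmp3, all on the plus strand, with the matches to TGANTCA and TATAAA in capitals. They lie at chr9:7347124-7347423 (the second RefSeq start of Mmp12), chr9:7272264-7272563 and chr9:7445572-7445871.
Mmp12: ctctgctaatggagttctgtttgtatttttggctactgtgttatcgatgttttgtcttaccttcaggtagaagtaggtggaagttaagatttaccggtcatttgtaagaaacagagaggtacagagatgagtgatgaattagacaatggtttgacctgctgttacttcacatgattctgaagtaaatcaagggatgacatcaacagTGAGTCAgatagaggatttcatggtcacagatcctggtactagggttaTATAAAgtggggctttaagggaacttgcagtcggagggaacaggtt
Mmp13: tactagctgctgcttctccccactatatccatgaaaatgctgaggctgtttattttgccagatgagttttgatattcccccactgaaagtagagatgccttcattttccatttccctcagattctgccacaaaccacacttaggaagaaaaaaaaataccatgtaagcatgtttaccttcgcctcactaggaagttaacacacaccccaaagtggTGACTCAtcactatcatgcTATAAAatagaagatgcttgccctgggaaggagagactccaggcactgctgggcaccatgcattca
Mmp3: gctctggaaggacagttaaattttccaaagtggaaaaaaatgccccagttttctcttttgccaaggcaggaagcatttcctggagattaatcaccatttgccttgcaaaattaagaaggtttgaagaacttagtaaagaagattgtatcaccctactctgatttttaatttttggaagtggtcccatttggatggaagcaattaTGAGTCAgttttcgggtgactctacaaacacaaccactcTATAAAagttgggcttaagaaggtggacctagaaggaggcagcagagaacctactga
The AP-1 match began 44 bases before the start in Mmp12, 35 in Mmp13 and 46 in Mmp3. A gene with 196 counts or more in each library and genes near 0 thus shared both motifs in these windows. The promoter at the first RefSeq start of Mmp12 (chr9:7344147-7344446) held neither motif.

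Between FDM and control eyes, few of the 41 tested genes differed. Timp3 and Adamts9 were lower in FDM eyes at an unadjusted p under 0.05 in edgeR's quasi-likelihood test. These are 2 of 41 (4.88%), and 0 were higher. Among all genes tested, 1.61% were called in either direction, 1.16% lower and 0.453% higher. After Benjamini-Hochberg adjustment over all genes, 0 members passed, and the smallest adjusted p among them was 1.0, which holds for every member named below unless another fit is given. DESeq2 called the same 2 genes against 0.987% of all genes, also with 0 members after adjustment. The log2 fold change was below 0 for 22 members (53.7%, against 55.6% of all genes) and above 0 for 19. Its median was -0.01, as over all genes (-0.01), and 18 members lay within 0.1 of 0. The median size of the change was 0.13 for the members and 0.07 for all genes, with median standard errors of 0.18 and 0.12. The p-values measure the spread between these 5 samples, of which 4 were the eyes of 2 mice.

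The members called changed with the libraries used. Without FDM 3, which carried the lens markers, 1 member was called in edgeR at the unadjusted threshold, Adamts19, beside 1.12% of all genes. Without FDM 1 it was Adamts1, beside 0.947% of all genes. Without Control 3, which carried the muscle markers, 0 were called (0.838% of all genes). Without Control 2 the calls were Adamts1 and Adamts20, both higher in FDM eyes (3.16% of all genes). Without Control 1 there were 3 of 41, Timp3, Adamts9 and Adamtsl5, beside 5.42% of all genes. Adamts19 and Adamts20 are named after their values were seen.

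**Figure D3:**
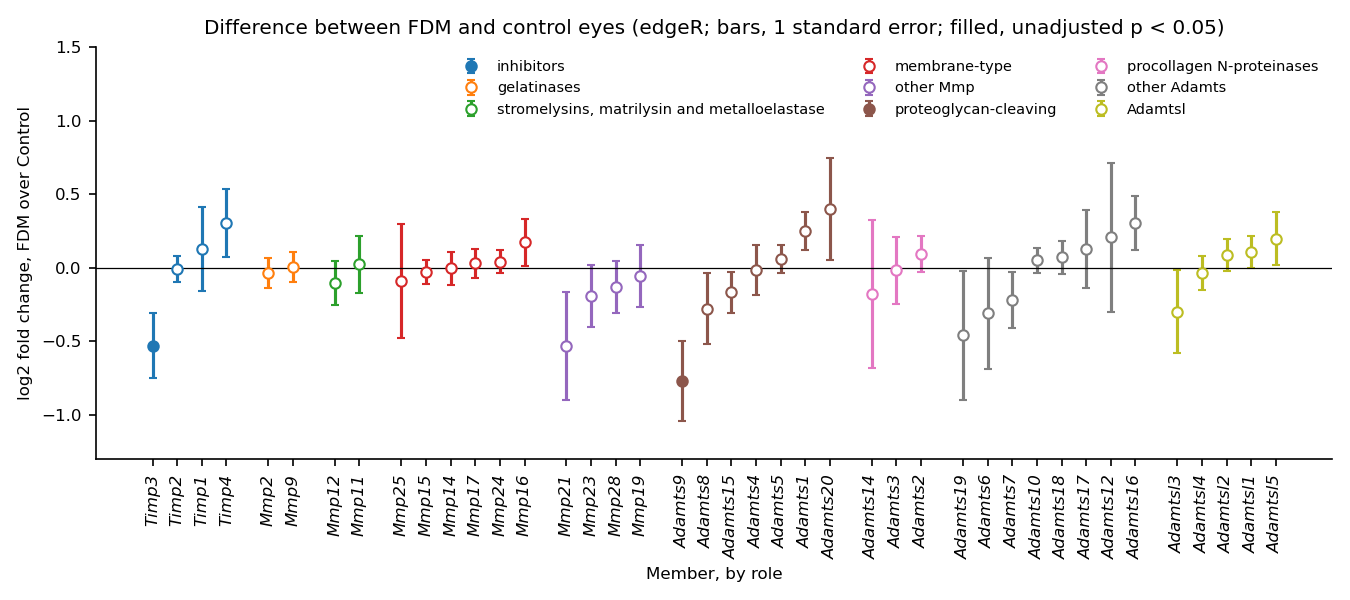
log2 fold change of FDM over control eyes for each tested gene, by role (points, edgeR estimate; bars, 1 standard error; filled points, unadjusted p under 0.05). Adamts9 (-0.77) and Timp3 (-0.53) are the filled points, and the 6 membrane-type enzymes lie between -0.09 and 0.17.

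Of the 4 Timp genes, Timp1, Timp3 and Timp4 each lie inside a synapsin gene, on the opposite strand of Syn1, Syn3 and Syn2. Timp3 was lower in FDM eyes at the unadjusted threshold and the other 3 were not called. Timp3 was at 64.2 and 70.1 CPM in FDM 1 and FDM 3, and at 66.7, 117 and 107 CPM in Control 1 to 3. Control 2 and Control 3 were high, whereas Control 1 lay between the FDM libraries, so that the groups overlapped. The means were 67.1 ± 4.17 CPM (SD, n = 2) in FDM and 96.9 ± 26.6 CPM (SD, n = 3) in control eyes, and the FDM level was 69.2% of the control level by the fit. The log2 fold change was -0.53 (standard error 0.22, edgeR, unadjusted p = 0.0469, adjusted p = 1.0). The spread of Timp3 among the controls was wider than that of 93.5% of all genes. Within the first mouse the FDM eye differed from the control eye by -0.06 and within the other mouse by -0.61 on the log2 scale.

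Like Timp3, the RPE markers as a sum were highest in Control 2 and Control 3. Of the 8 markers 4 were called lower in FDM eyes (1.16% of all genes), namely Rpe65, Lrat, Ttr and Kcnj13. Their summed level ran from 41.3 to 47.5 CPM in the FDM and from 47.9 to 182 CPM in the control group, and none was at 0. In the first mouse, where the markers stood at 47.5 and 47.9 CPM, Timp3 was at 64.2 CPM in the FDM and 66.7 CPM in the control eye. In the other mouse the markers stood at 41.3 and 175 CPM and Timp3 at 70.1 and 107 CPM. As a sum, fibroblast markers of sclera or choroid were also highest in Control 2 and Control 3. They summed to 10.9, 19.1, 13.7, 31.9 and 47.1 CPM in FDM 1, FDM 3 and Control 1 to 3. Singly, Col1a2, Dcn and Fmod were highest in Control 2 and Control 3. Col1a1 was lowest in Control 2, and Col3a1 and Lum were lower in Control 2 than in FDM 3. The part of either tissue in the Timp3 result was not tested. The photoreceptor markers, of which 0 of 6 were called, stood at 58950 and 54499 CPM in the FDM eyes and 48529 to 62498 CPM in the controls. The unadjusted call of Timp3 was lost when any library but Control 1 was left out. Without Control 2 the log2 fold change was -0.36 (edgeR, unadjusted p = 0.127), without Control 3 -0.45 (unadjusted p = 0.145), and without Control 1 -0.74 (unadjusted p = 1.13e-04, adjusted p = 0.0951). Without FDM 1 it was -0.47 (edgeR, unadjusted p = 0.148), and without FDM 3, the library with lens markers, -0.59 (edgeR, unadjusted p = 0.0787).

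**Figure D4:**
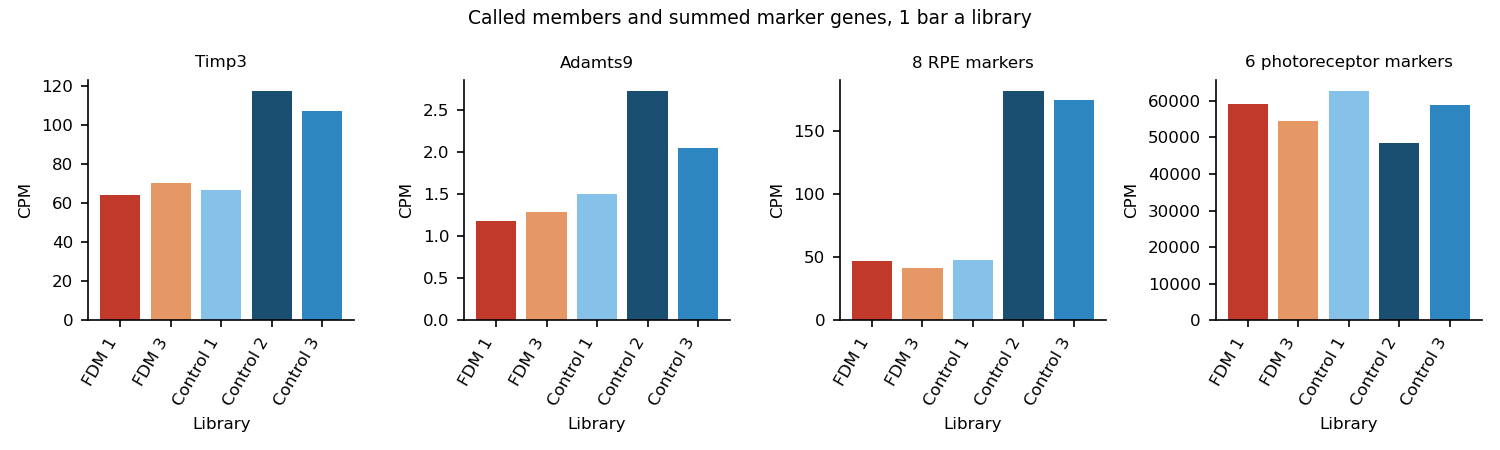
CPM of Timp3, of Adamts9, of 8 summed RPE markers and of 6 summed photoreceptor markers in each library (1 bar per library, axes from 0). Timp3 and the RPE markers were highest in Control 2 (117 and 182 CPM) and Control 3 (107 and 175 CPM), and Control 1 stood beside the FDM libraries for both.

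The Timp3 gene lies at chr10:86300372-86349506 on the plus strand of GRCm38 and shares 1733 exon bases with Syn3 on the other strand. Syn3 itself had 271 to 445 counts against 2662 to 6673 for Timp3, and a log2 fold change of -0.07 (edgeR, unadjusted p = 0.571). The promoter of Timp3 (chr10:86300162-86300461, plus strand) is printed because its gene carried one of the 2 calls, with both GC boxes, found as CCGCCC on this strand, in capitals.
Timp3: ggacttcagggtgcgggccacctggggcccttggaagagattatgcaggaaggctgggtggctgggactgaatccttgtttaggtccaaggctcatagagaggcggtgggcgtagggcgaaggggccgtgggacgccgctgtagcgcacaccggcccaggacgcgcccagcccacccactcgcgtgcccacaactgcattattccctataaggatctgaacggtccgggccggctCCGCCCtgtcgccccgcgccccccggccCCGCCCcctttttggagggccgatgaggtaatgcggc
It held no match to TGANTCA or TATAAA in this window, unlike the cluster promoters printed above.

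The other 3 inhibitors were not called. Timp2 was at 94.8 and 94.7 CPM in FDM 1 and FDM 3 and at 97.0, 88.4 and 101 CPM in Control 1 to 3. Its log2 fold change was -0.01 (standard error 0.09, edgeR, unadjusted p = 0.920). The ratio of Timp3 to Timp2 per kilobase was 0.324 and 0.354 in the FDM eyes, and 0.329, 0.633 and 0.508 in Control 1 to 3. Timp1, which is induced in reactive glia and wounded tissue, had 24 and 23 counts in the FDM and 17, 24 and 27 counts in the control libraries. Its log2 fold change was 0.13 (edgeR, unadjusted p = 0.671). Timp4, the inhibitor best known from the heart and vessels, had 1.01 and 0.936 CPM in FDM 1 and FDM 3 against 0.651, 0.824 and 0.884 CPM in the controls. Both FDM libraries lay above all controls, but the difference of 0.30 on the log2 scale (standard error 0.23, edgeR, unadjusted p = 0.230) was not called.

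Among the 7 ADAMTS proteases that cleave proteoglycans, 1 was called (1.61% of all genes), Adamts9, and it was lower in FDM eyes. Adamts9 cleaves aggrecan and versican and is required in the mouse embryo. Levels were 1.18 and 1.29 CPM in FDM 1 and FDM 3, and 1.5, 2.72 and 2.04 CPM in Control 1 to 3. Both FDM libraries lay below all 3 controls, with Control 1 nearest to them. The group means were 1.23 ± 0.0797 CPM (SD, n = 2) for FDM and 2.09 ± 0.609 CPM (SD, n = 3) for control eyes, 58.8% of the control level in the fit. The log2 fold change was -0.77 (standard error 0.27, edgeR, unadjusted p = 0.0252, adjusted p = 1.0), and it was -0.35 within the first mouse and -0.66 within the other. In limma it was -0.63 (unadjusted p = 0.0274). Leaving out any of FDM 1, FDM 3, Control 2 or Control 3 raised its unadjusted p to between 0.0558 and 0.0979 in edgeR, with log2 fold changes of -0.83 to -0.52. Like Timp3, Adamts9 followed the order of the summed RPE markers in the controls, with Control 1 lowest and Control 2 highest for both. The order of the FDM libraries was not shared. The summed RPE markers were higher in FDM 1 (47.5 CPM) than in FDM 3 (41.3 CPM), whereas Adamts9 and Timp3 were higher in FDM 3. Singly, Rpe65, Lrat, Ttr and Kcnj13 were highest in Control 2, but Tyrp1, Pmel, Mlana and Best1 in Control 3. The part of the RPE in this result was not tested.

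Adamts9 lies at chr6:92772699-92943492 on the minus strand. On the opposite strand, A730049H05Rik (1381 bases) and Gm15737 (424 bases) share exon bases with it. A730049H05Rik had 10, 12, 3, 39 and 16 counts in FDM 1, FDM 3 and Control 1 to 3, against 51, 62, 60, 155 and 97 for Adamts9, so Control 2 was the highest library for both. Gm15737 had 35, 26, 28, 31 and 23 counts in the same order of libraries. Adamts9 has 15048 exon bases, and without strand the reads of the shared bases cannot be assigned to one gene. The promoter of Adamts9 (chr6:92943485-92943784, minus strand) is printed as that of the other called gene, with its GC box, read as CCGCCC here, in capitals.
Adamts9: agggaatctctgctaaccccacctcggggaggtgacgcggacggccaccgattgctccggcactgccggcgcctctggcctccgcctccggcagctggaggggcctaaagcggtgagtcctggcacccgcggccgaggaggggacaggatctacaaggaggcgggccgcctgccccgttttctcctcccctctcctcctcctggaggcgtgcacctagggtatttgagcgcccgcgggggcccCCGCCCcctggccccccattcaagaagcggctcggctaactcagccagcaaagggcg
The GC box began 7 bases before the start.

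Adamts1, which cleaves versican and aggrecan and restrains vessel growth, had a higher mean in FDM eyes but was not called. Its levels were 19.2 and 23.4 CPM in FDM 1 and FDM 3, and 15.9, 19.8 and 18.2 CPM in Control 1 to 3, so that FDM 1 lay below Control 2. The means of 21.3 ± 2.94 CPM (SD, n = 2) and 17.9 ± 1.95 CPM (SD, n = 3) gave a log2 fold change of 0.25 (standard error 0.13, edgeR, unadjusted p = 0.0940). Without FDM 1 it was 0.38 (edgeR, unadjusted p = 0.0499) and without Control 2 it was 0.33 (edgeR, unadjusted p = 0.0361). Adamts5, the main aggrecanase of mouse cartilage, had 24.2 ± 0.171 CPM (SD, n = 2) in FDM and 23.2 ± 2.00 CPM (SD, n = 3) in control eyes. Its log2 fold change was 0.06 (edgeR, unadjusted p = 0.550). The remaining members of this group, Adamts4, Adamts8, Adamts15 and Adamts20, had p-values from 0.275 to 0.933 in edgeR. Adamts15 is named here after its values were seen, since both FDM libraries (3.0 and 3.01 CPM) lay below all controls (3.21 to 3.52 CPM).

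The number of members called with the mouse as a block depended on which numbering set the pairs. With the study's numbering, 5 of 41 members had an unadjusted p under 0.05 (12.2%), against 7.23% of all genes tested. Of these 3 were higher in FDM eyes (3.57% of all genes) and 2, Timp3 and Adamts9, were lower (3.67% of all genes), and 0 passed adjustment, the smallest adjusted p being 0.175 for Adamts1. Adamts1 had a log2 fold change of 0.32 in this fit (edgeR with the block, unadjusted p = 8.65e-04), and the FDM eye was higher by 0.28 in the first mouse and by 0.36 in the other. Adamts20, a versicanase needed by melanoblasts in the embryo, had 0.83 (edgeR with the block, unadjusted p = 0.00898, adjusted p = 0.561), with 0.99 and 0.70 within the mice. Its levels were 1.25 and 1.33 CPM in the FDM eyes and 0.626, 1.44 and 0.821 CPM in the controls. Control 2, which had no partner, was the highest library, and without the block Adamts20 stood at 0.40 (edgeR, unadjusted p = 0.283). Adamts3, which removes the amino propeptide of procollagen and activates VEGF-C, had 0.25 (edgeR with the block, unadjusted p = 0.0242, adjusted p = 0.631) and 0.45 and 0.07 within the mice. Timp3 was at -0.34 (edgeR with the block, unadjusted p = 0.0145, adjusted p = 0.608) and Adamts9 at -0.52 (edgeR with the block, unadjusted p = 0.0356, adjusted p = 0.666). With the numbering of the sample labels, which pairs FDM 3 with Control 2, 2 members were called (2.52% of all genes), Timp3 and Adamts9, and the 3 higher calls were lost. Adamts1 then had 0.26 (edgeR, unadjusted p = 0.0558), Adamts20 0.37 (edgeR, unadjusted p = 0.219) and Adamts3 -0.07 (edgeR, unadjusted p = 0.630), the last with its sign turned. The block by the study's numbering leaves 1 residual degree of freedom, and the FDM eye was lower in both mice for 15 of 41 members (36.6%; 30.3% of all genes) and higher in both for 11 (26.8%; 24.7% of all genes).

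The gelatinases, which degrade denatured collagen and basement membrane collagen IV, were not called. Mmp2 had 12.9 ± 0.136 CPM (SD, n = 2) in FDM and 13.2 ± 0.845 CPM (SD, n = 3) in control eyes, with a log2 fold change of -0.03 (standard error 0.10, edgeR, unadjusted p = 0.754). Mmp9 had 21.5 and 22.0 CPM in the FDM eyes and 20.7, 20.2 and 24.3 CPM in Control 1 to 3, with a log2 fold change of 0.01 (standard error 0.10, edgeR, unadjusted p = 0.959). The FDM values of Mmp9 lay inside the range of the controls.

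The 6 membrane-type enzymes, which act at the cell surface, lay between -0.09 and 0.17 on the log2 scale, 3 below and 3 above 0, and 0 were called. Mmp24 had 32.3 and 32.8 CPM in the FDM libraries and 32.6, 30.3 and 31.9 CPM in the controls, a log2 fold change of 0.04 (standard error 0.08, edgeR, unadjusted p = 0.603). It shares 637 exon bases with BC029722 on the opposite strand, which had 2105 to 2593 counts. Mmp17, which is anchored by a lipid and activates other proteases, had 24.8 and 24.2 CPM against 26.3, 21.9 and 23.7 CPM, and 0.03 on the log2 scale (edgeR, unadjusted p = 0.759). Mmp14, the principal activator of pro-MMP2, had 13.7 and 13.0 CPM in FDM eyes and 12.2 to 14.7 CPM in controls, and is named here although it is not among the leading genes of its group.

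Among the stromelysins, matrilysin and metalloelastase, Mmp12 and Mmp11 were the tested genes. Mmp11, a stromelysin activated inside the cell by furin, had 3.85 and 3.70 CPM in FDM and 4.48, 3.0 and 3.71 CPM in control eyes, a log2 fold change of 0.02 (edgeR, unadjusted p = 0.909). Of all genes tested 55.6% had a log2 fold change below 0. All 4 tested genes of the remaining metalloproteases did so, from -0.53 to -0.06, and 0 were called. Mmp21, which acts in left-right patterning of the embryo, had the lowest of these values. It had 9 and 8 counts in the FDM libraries and 11, 15 and 13 counts in the controls, without overlap, and its log2 fold change of -0.53 (standard error 0.37, edgeR, unadjusted p = 0.192) was not called. Mmp23 (1.90 ± 0.201 CPM, SD, n = 2, in FDM eyes and 2.17 ± 0.402 CPM, SD, n = 3, in controls) had -0.19 (edgeR, unadjusted p = 0.396). Mmp28, an epidermal and neural metalloprotease called epilysin, had 1.85 ± 0.0894 CPM (SD, n = 2) and 2.03 ± 0.217 CPM (SD, n = 3) and a log2 fold change of -0.13 (edgeR, unadjusted p = 0.481). Mmp19, the fourth, had 0.900 and 0.956 CPM in FDM and 0.877 to 1.03 CPM in control eyes (-0.06, edgeR, unadjusted p = 0.795). With the authors' normalization factors as offsets it was called higher instead (0.65, edgeR, unadjusted p = 0.0492), one of 2 members called in that fit beside 1.89% of all genes, the other being Adamts9. Mmp19 shares 789 exon bases with Tmem198b on the opposite strand.

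Among the 3 procollagen N-proteinases, Adamts3 had 18.7 and 15.8 CPM in the FDM eyes and 13.7, 23.5 and 15.1 CPM in the controls. The control libraries spanned the FDM values, and the log2 fold change was -0.02 (standard error 0.23, edgeR, unadjusted p = 0.940). Adamts2, the main procollagen I and II N-proteinase, had 8.20 ± 0.540 CPM (SD, n = 2) in FDM and 7.67 ± 0.632 CPM (SD, n = 3) in control eyes (0.10, edgeR, unadjusted p = 0.455). Of the other ADAMTS genes, 8 of 9 were tested and 0 were called. Adamts10 had 39.1 and 37.1 CPM in the FDM eyes and 39.3, 35.9 and 35.1 CPM in controls (0.05, edgeR, unadjusted p = 0.572). Adamts18, mutated in human eye disorders, had 8.72 and 7.76 CPM against 7.86, 8.21 and 7.45 CPM (0.07, edgeR, unadjusted p = 0.560). Adamts16 had 2.81 and 2.77 CPM in FDM eyes and 2.28, 1.89 and 2.61 CPM in controls, with both FDM libraries above the controls at 0.30 on the log2 scale (standard error 0.18, edgeR, unadjusted p = 0.138). Of the 41 tested members, 4 had both FDM libraries below all controls (9.76%; 6.67% of all genes), namely Adamts7, Adamts9, Adamts15 and Mmp21, and 2 had them above (4.88%; 3.97% of all genes), Adamts16 and Timp4.

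The 5 ADAMTS-like genes, whose products bind fibrillin microfibrils or other matrix proteins, gave 0 calls and log2 fold changes of -0.30 to 0.20. Adamtsl5 had 27.8 and 24.0 CPM in FDM 1 and FDM 3 and 27.7, 17.5 and 22.8 CPM in Control 1 to 3. Control 2 was the lowest library and Control 1 stood with FDM 1, and the log2 fold change was 0.20 (standard error 0.18, edgeR, unadjusted p = 0.309). Without Control 1 it was 0.37 (edgeR, unadjusted p = 0.0412). Adamtsl1 had 18.0 and 17.4 CPM in the FDM eyes against 18.2, 15.3 and 15.6 CPM in the controls (0.11, edgeR, unadjusted p = 0.341).

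The control libraries also differed among themselves. Control 1 was the highest library for 16 of the 41 tested members (39%; 27.7% of all genes) and Control 2 for 10 (24.4%; 31.4% of all genes), whereas Control 2 was the lowest for 14 (34.1%; 30.9% of all genes). Of the 41 members 8 (19.5%) spread more among the controls than 90% of all genes, namely Adamts3, Adamts6, Adamts9, Adamts14, Adamts17, Adamts20, Mmp25 and Timp3. The 51 genes summed to 509 CPM in each FDM library and to 510, 538 and 539 CPM in Control 1 to 3. Without Timp3 the sums were 445 and 439 CPM in FDM 1 and FDM 3 and 444, 421 and 432 CPM in Control 1 to 3, so that the order of Control 1 and Control 2 turned when a single gene was left out.

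**Figure D5:**
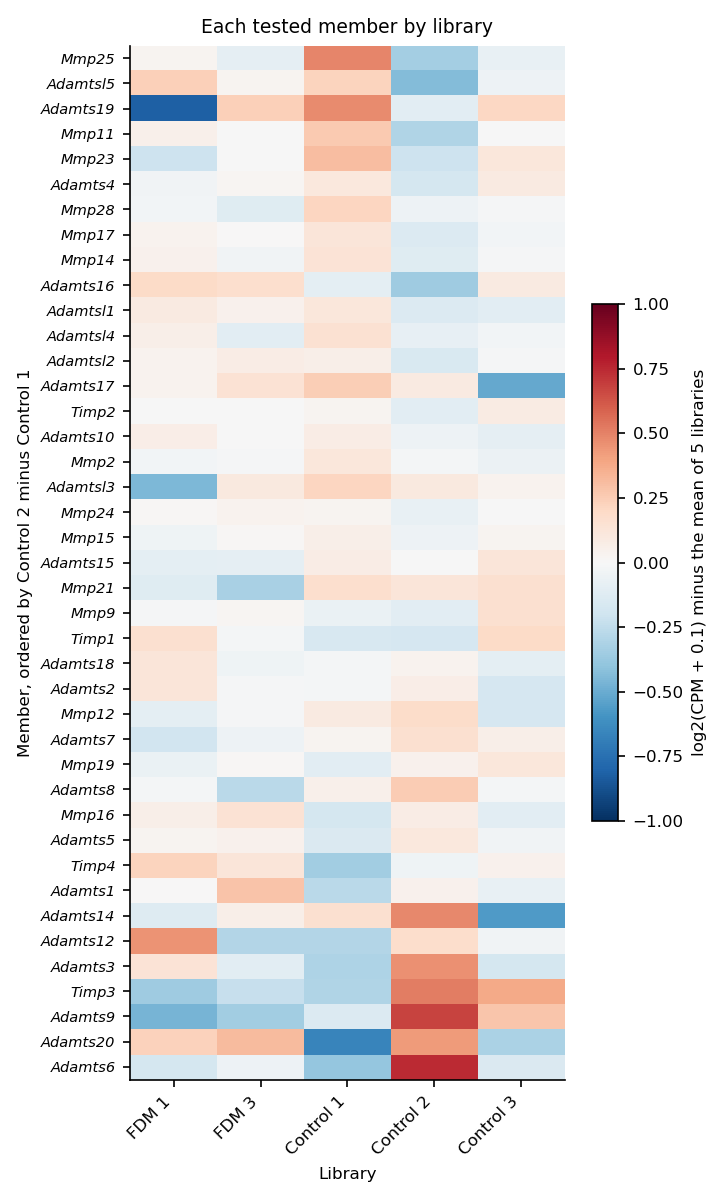
Deviation of each tested gene in each library from its mean over the 5 libraries, as log2(CPM + 0.1), with rows ordered by the difference of Control 2 and Control 1. Control 2 is high for Timp3, Adamts9, Adamts20 and Adamts6 at the foot and low for Mmp25 and Adamtsl5 at the top.

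Genes that act on these proteases were read from a list of 20 regulators, of which 18 were tested, 0 were higher and 2 were lower in FDM eyes (0.453% and 1.16% of all genes), with a median log2 fold change of -0.11 against -0.01 for all genes. Plau, the urokinase that starts the activation of pro-metalloproteases through plasmin, had 28 and 31 counts in the FDM libraries and 46, 56 and 60 counts in the controls. The groups did not overlap, and the log2 fold change was -0.81 (standard error 0.23, edgeR, unadjusted p = 0.00893, adjusted p = 1.0). A2m, a protease trap of blood and tissue fluid, had 6.69 and 7.80 CPM in FDM eyes and 7.94, 11.1 and 12.6 CPM in Control 1 to 3, a log2 fold change of -0.55 (standard error 0.20, edgeR, unadjusted p = 0.0287). As for Timp3, Control 1 stood nearest the FDM libraries for A2m. With the mouse as a block Reck, Plau, A2m and Fbln1 had an unadjusted p under 0.05 in edgeR, a threshold that 7.23% of all genes passed in that fit. Reck was higher in FDM eyes there, at 0.15 on the log2 scale, whereas Plau, A2m and Fbln1 were lower, at -0.90, -0.48 and -1.66. Of the 12 substrates listed, which include aggrecan, versican, neurocan, perlecan and fibrillins, all were tested, 0 were called, and their median was -0.01. Single log2 fold changes ran from -1.46 for Vcan (edgeR, unadjusted p = 0.0852) to 0.41 for Nid1 (edgeR, unadjusted p = 0.170). With the same block 2 of the 12 (7.23% of all genes), Vcan (edgeR, unadjusted p = 0.0148) and Fbn1 (edgeR, unadjusted p = 0.0336), had a p under 0.05. Both were lower in FDM eyes in that fit, at -0.51 and -0.28 on the log2 scale. With the block by label numbers, which pairs FDM 3 with Control 2, they were at -1.26 and -0.55 (edgeR, adjusted p = 5.99e-05 and 0.0282). In that fit 0.734% of all genes passed adjustment. Vcan had 617 counts in Control 2 and 56 to 208 elsewhere. Without the block its log2 fold change ran from -2.12 to -0.54 when a library was left out.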

How the data were processed

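The 5 samples are poly-A RNA of mouse retina, assigned to groups by their labels. The submitters' processing notes name Trimmomatic 0.39, Salmon 1.10.1, R 4.3.1 and the build GRCm38 (mm10). The authors trimmed the reads, estimated transcript abundance, summed it to genes and deposited estimated counts as whole numbers. The authors also deposited a signal, the counts normalized by a factor for each gene and library, from which these factors were recovered as offsets. The authors left out 1 FDM library for read duplication. The deposited whole numbers were tested as counts.

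The 17432 genes that had over 10 counts in 2 or more libraries were tested in edgeR 4.0.16 (R 4.3.3) with TMM normalization and the quasi-likelihood test, without covariates, at the authors' unadjusted threshold of 0.05, and p-values were adjusted by Benjamini-Hochberg over the whole table. CPM use the TMM-scaled total. Standard errors follow from the fold change and its F statistic. Alternatives were DESeq2 1.42.0, limma 3.58.1 with a pseudocount of 1 (log2, on the normalized counts), other factors and filters, a block for the mouse, and leaving out 1 library at a time. The pairs are eyes of one mouse in the study's numbering, and across genes the deviations from group means correlated at 0.255 for FDM 1 with Control 1 and 0.107 for FDM 3 with Control 3, against 0.165 for FDM 3 with Control 2, its partner by the label numbers. Over the 41 members alone these correlations were -0.126, -0.0827 and -0.0615. With 2 FDM libraries the values of one mirror those of the other, so the pairs are not separate evidence. Simulated 2-fold and 1.5-fold changes for this comparison were recovered by edgeR in 89.5% and 78% of 200 changed genes among 17432. Of the unchanged genes it called 4.84% and 4.73%, whereas 1.61% of all genes were called in the data. The simulated libraries were independent, without mouse pairs or differences in tissue markers, so these shares do not measure recovery in the data. Gene positions, exon lengths and overlaps are from GENCODE M21 (33585 of 33635 identifiers), and promoters from RefSeq on GRCm38.p6. Of 51 members 25 were named by rule: the Timp genes, called members, the 3 smallest p in each direction, and the 2 highest by CPM in each role and the highest per kilobase in each family. Other members were named after their values were seen, and members and lists were chosen with earlier results of these data known. The values of 1 listed regulator are not reported here.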

Additional observations from a re-analysis of the deposited data

How the results depend on the processing

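Of the 41 tested members, 2 were called in the fit as reported, and 1 with DESeq2 size factors (Adamts9), 5 with the mouse as a replicate block, and 0 to 3 when each library was left out. DESeq2, limma, the authors' factors, the block by label numbers and 2 other count filters gave 2, though not always the same genes: Timp3 was replaced by Mmp19 in limma and with the authors' factors. Timp3 had an unadjusted p of 0.0512 with DESeq2 size factors and of 0.0536 with the authors' factors in edgeR, and of 0.136 in limma. Over all genes, 281 calls became 498 without a count filter, 172 in DESeq2, 500 in limma, 1261 with the mouse block, 439 with the block by label numbers, and 146 to 944 when a library was left out. Among the named members, direction turned for values near 0: Adamts3 (0.0017), Adamtsl1 (-0.0905), Mmp24 (-0.0110) and Mmp9 (-0.0314) with the authors' factors, Adamts3 (0.0445), Adamtsl1 (-0.0807), Mmp24 (-0.00997) and Mmp9 (-0.0224) in limma, Adamts3 (0.25), Mmp11 (-0.11), Mmp17 (-0.0278) and Mmp9 (-0.0440) with the mouse block, and Timp2 (0.0331) with the label block. Leaving out a library turned Adamts18 (-0.0164 to 0.15), Adamts3 (-0.16 to 0.27), Mmp11 (-0.10 to 0.17), Mmp17 (-0.0189 to 0.10), Mmp2 (-0.0627 to 0.0203), Mmp9 (-0.0363 to 0.10) and Timp2 (-0.0507 to 0.0381). The cause was not tested. Timp3 (-0.74 to -0.36) and Adamts9 (-0.95 to -0.52) were lower in FDM eyes in each of these refits. With 3 residual degrees of freedom and a median standard error of 0.18 on the log2 scale, small differences were not detectable, and a missing call does not show equal levels. Where 1 FDM library remained, it was assumed to vary like the controls.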

Other observations

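Several members are close neighbours, and differences between neighbours were not tested. Adamts1 and Adamts5 lie 53.1 kb apart on chromosome 16, with log2 fold changes of 0.25 and 0.06 in FDM over control eyes. Adamts15 and Adamts8 lie 20.1 kb apart on chromosome 9 at -0.17 and -0.28, and in edgeR none of the 4 was called. Fbln1, the fibulin that binds ADAMTS1, varied most of the regulators, with 62 and 619 counts in FDM 1 and FDM 3, and 178, 2690 and 1947 counts in Control 1 to 3. Its log2 fold change was -2.11 (edgeR, unadjusted p = 0.0881) without and -1.66 with the mouse as a block (edgeR, adjusted p = 1.53e-05). The block leaves 1 residual degree of freedom, and 0.31% of all genes passed adjustment with it against 0 without it. Fibroblast markers of sclera or choroid summed to 10.9, 19.1, 13.7, 31.9 and 47.1 CPM in the same order of libraries, and their part in the Fbln1 values was not tested.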
